A study of Mus musculus with 8 samples.

Results

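The genes described here encode proteins that read, write, move or open chromatin or that regulate transcription, and mutations of them in people are linked to autism. A list of 39 gene names was looked up by symbol in the deposited table of 55032 genes, and 38 of them have a row. The remaining name, Tblr1, is an older name of Tbl1xr1, which is on the list under its current symbol. Striatum was taken at postnatal day 60 (P60) from females of the C57BL/6 background, of which 4 were WT and 4 were 16p11.2+/-. The 16p11.2+/- mice carry, in every cell, a heterozygous deletion of the mouse segment on chromosome 7 that corresponds to human 16p11.2, and none of the listed genes lies in it. Each mouse gave 1 library of total RNA. The WT mice are WT-1015, WT-1041, WT-1061 and WT-1063, and the 16p11.2+/- mice are DF-1018, DF-1037, DF-1059 and DF-1062. Values that are listed by mouse below follow this order. Nothing in the labels speaks of pooled animals or of batches.

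DNA in the nucleus is wound around histones, and a gene is transcribed only where this packing allows it. Remodellers of the CHD and BAF families slide or evict nucleosomes with the energy of ATP, methyltransferases and demethylases add or remove methyl marks on histone tails, and corepressor complexes carry deacetylases to genes. Mediator passes the signal of DNA-bound transcription factors to RNA polymerase. Many of these genes are haploinsufficient in people, so that loss of a single copy is enough to disturb brain development, and their transcripts are made in most neurons.

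The table lists counts, and FPKM, which is the count scaled to the exon length of the gene and to the reads counted in the mouse. Levels of different genes can then be set side by side, as far as this length holds. It is the length of all annotated exons of the gene merged, which can exceed that of any single transcript. Between 15125051 and 16523429 reads were counted per mouse. The genotype labels were checked on 12 genes of the deleted segment: 11 of them passed the threshold, and their log2 fold changes were between -1.29 and -0.93. Before the regulators are described, the make-up of the tissue has to be given, because it differed between mice of the same genotype. Each marker list was scored as its mean log2 CPM, where CPM is the count scaled to the library. All 10 markers of medium spiny neurons, the main neurons of the striatum, were expressed in each mouse, but their score was 5.96 in DF-1062 and 6.39 in DF-1037, against 7.74 to 8.48 in the other 6 mice. The score of 7 thalamic neuron markers was 5.73 to 6.65 in WT-1063, DF-1018, DF-1037 and DF-1062 and 3.20 to 3.43 in the other 4 mice. The score of 7 cortical glutamatergic neuron markers was 0.47 to 1.11 in WT-1063, DF-1018 and DF-1062 and 3.69 to 5.19 in the other 5 mice, and Emx1, a defining cortical gene, had 0 counts in DF-1018. The 8 oligodendrocyte markers scored between 9.43 and 9.72 in WT and between 8.74 and 9.28 in 16p11.2+/- mice. The choroid plexus score was 7.35 in WT-1063 and at most 4.64 elsewhere. In bulk tissue, fewer cells of a type and less RNA per cell cannot be told apart. Genes whose values separated the mice with a high thalamic score, a low cortical score or a low medium spiny neuron score from the others are pointed out below. The share of all genes tested that separate the same mice was not computed. These separations are therefore given as values and not as traits of the regulators.

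Of the 38 genes, 37 had enough counts to be tested with edgeR's quasi-likelihood test, together with 18294 genes in all. None of the 37 passed the adjusted threshold of 0.05, and 20 genes of the whole table did (0.109%). None of the 37 had an unadjusted p under 0.05 either, a level that 4.32% of all genes tested reached, and DESeq2 and limma-voom gave 0 as well at both thresholds. For no regulator were the FPKM values of the genotypes free of overlap, which was the case for 2.83% of all genes tested. The log2 fold change (16p11.2+/- against WT) was negative for 20 of the regulators and positive for 17, beside 51.8% negative among all genes tested. Its median was -0.01 for the regulators and -0.01 for all genes. The extremes were -0.27 for Bcl11a and 0.14 for Chd3, and the smallest p was that of Ctcf, 0.0598 in edgeR (adjusted p = 0.859).

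These genes were measured with small error. The median standard error of the log2 fold change was 0.097 for the regulators and 0.179 for all genes tested. The 95% interval of the log2 fold change stayed within 0.5 of 0 for 33 of the 37 regulators, against 43.7% of all genes tested. The small error is not particular to the list. For 108 subunits and relatives of the regulators, described below, the median standard error was 0.096, and 90 had an interval within 0.5 of 0. The interval stayed within 1 of 0, the size of change seen for the genes of the deleted segment, for all 37 regulators, against 76.7% of all genes tested. The lowest bound of any interval was -0.81 (Bcl11a) and the highest was 0.44 (Hdac4). Changes within these intervals remain possible. The intervals are not the detection limit of the adjusted threshold, which larger changes can also miss with 4 mice per genotype. Mvp, a gene of the deleted segment, had a log2 fold change of -1.29 and an edgeR adjusted p of 0.0986.

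**Figure D1:**
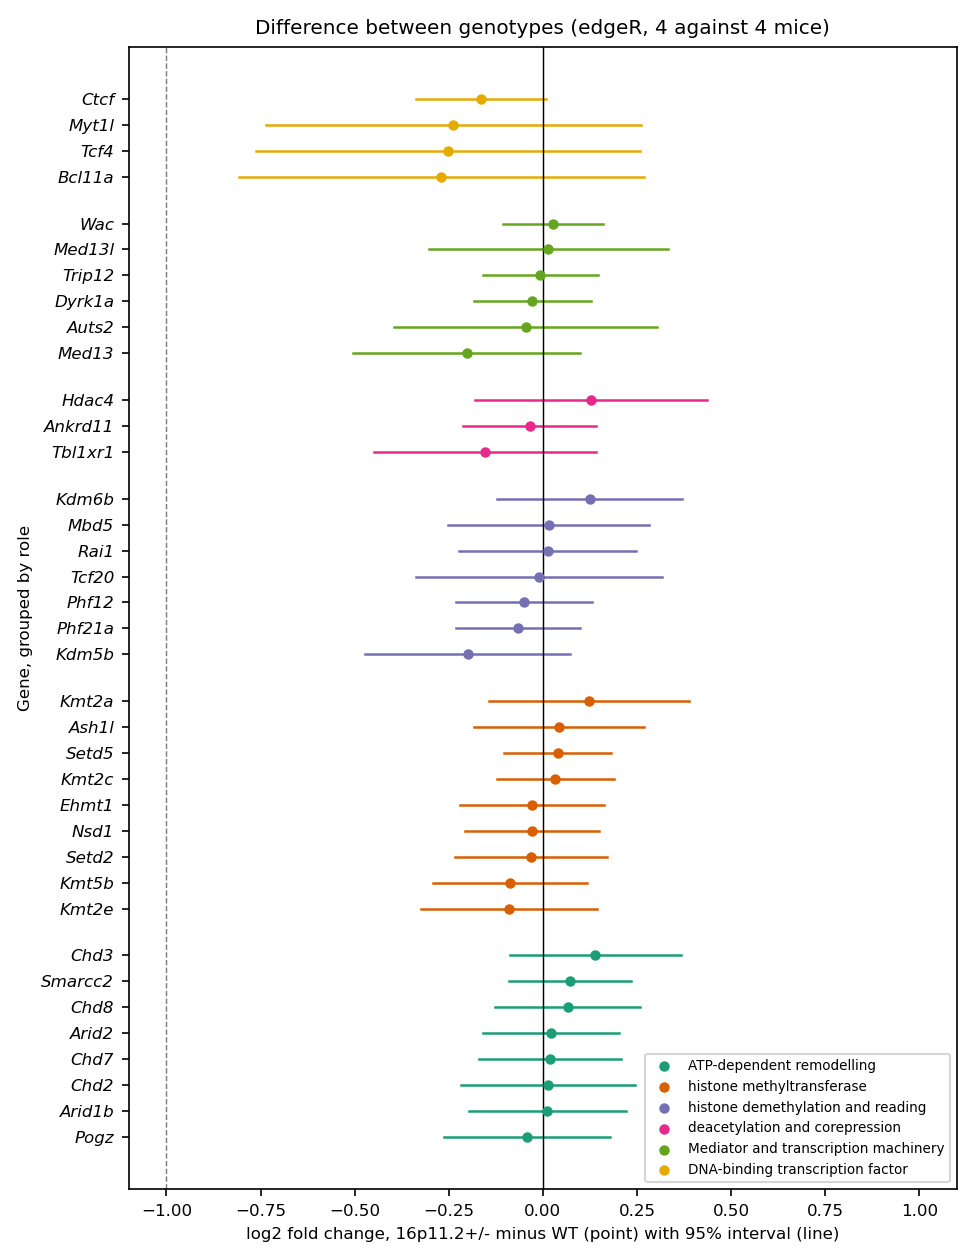
Log2 fold change of each of the 37 tested regulators in 16p11.2+/- against WT striatum (x axis, point) with its 95% interval (line) from edgeR, grouped by role on the y axis, with a solid line at 0 and a dashed line at -1. Every interval crosses 0, and the 4 DNA-binding transcription factors at the top all have negative values, between -0.27 and -0.16.

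The levels spanned a 29.7-fold range. Chd3 was the most abundant with a mean of 73.1 FPKM over the 8 mice, followed by Smarcc2 at 52.4 and Myt1l at 27.6 FPKM. Chd7 was the lowest of those tested at 2.46 FPKM, below Hdac4 at 3.45. Of the 37 genes, 27 had a mean between 5 and 20 FPKM, 6 were below 5 and 4 were above 20. Of 36 pairs of neighbours in this order, 31 had overlapping ranges over the 8 mice. The steps without overlap were those from Chd3 to Smarcc2, from Smarcc2 to Myt1l, from Kmt2e to Trip12, from Phf21a to Chd2 and from Hdac4 to Chd7. The highest mouse was less than 1.3 times the lowest for 21 genes and at least 1.5 times the lowest for 8 genes, and the widest ranges were those of Bcl11a (2.03 times), Tcf4 (1.85 times), Myt1l (1.84 times), Hdac4 (1.602 times) and Kdm5b (1.57 times). Wac varied least within the genotypes, with a standard deviation of 0.030 in log2 CPM. The median of this standard deviation was 0.127 for the regulators, 0.127 for their 108 subunits and relatives and 0.250 for all genes tested.

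**Figure D2:**
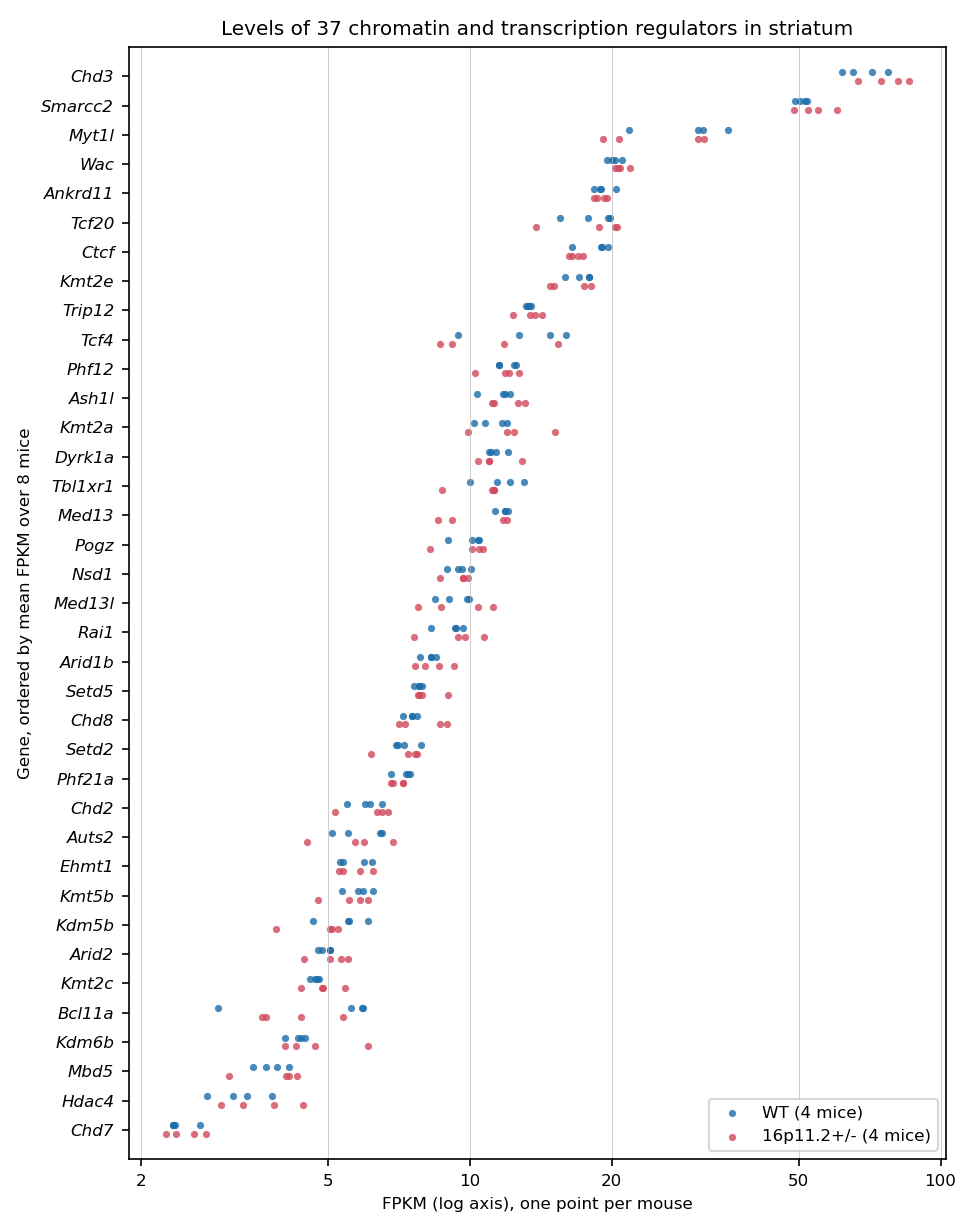
FPKM of the 37 tested regulators in each mouse (x axis, log scale), with genes ordered by their mean over 8 mice (y axis), WT in blue and 16p11.2+/- in red. Chd3 lies at the top between 61.8 and 85.7 FPKM and Chd7 at the bottom between 2.26 and 2.75 FPKM, and the points of the genotypes overlap in every row.

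The listed genes share features that the list was not built on. Their merged exons are long: by GENCODE M21 (GRCm38) the exon length had a median of 13175 bases, against 3932 for all genes tested. All 37 were longer than this all-gene median. The length of single transcripts was not measured. The median gene span was 115 kb, against 19.8 kb, and Auts2 spans 1106 kb. They lie on 19 chromosomes. The only one on chromosome 7 is Chd2, at 73426638 to 73541830 on the minus strand, 53.2 Mb away from the deleted genes that were checked. Promoters from RefSeq (GRCm38.p6), running from 250 bases before to 50 bases after the start, were matched for 27 of the 38 genes, which have 36 such promoters. They held a median of 27.5 CpG dinucleotides and 69.7% GC, against 19 CpG and 60.0% GC for promoters of the genes tested. At least 15 CpG were present in 72.2% of the promoters of the regulators and in 61.9% of those of the genes tested. On both strands, the GC box GGGGCGGGG was found in 9 of the 36 promoters, against 19.7% for the genes tested, and TATAAA was found in 1, against 7.62%. The letters CCGGAAGT, the NRF1 motif and the YY1 motif AAGATGGCG were found in none of the 36, against 6.87%, 1.78% and 2.51%.

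Promoters of 3 transcription factor genes on the list are printed below, because these are the genes with the smallest p (Ctcf), the lowest log2 fold change (Bcl11a) and a wide spread together with few CpG (Myt1l, the first of its 5 promoters, which have between 4 and 13 CpG). All are on the plus strand, 5′ to 3′, with each CpG in capitals. The Ctcf promoter lies at chr8:105636288-105636587 and has 47 CpG, the Bcl11a promoter lies at chr11:24080445-24080744 and has 23, and the Myt1l promoter lies at chr12:29528134-29528433 and has 4.
Ctcf: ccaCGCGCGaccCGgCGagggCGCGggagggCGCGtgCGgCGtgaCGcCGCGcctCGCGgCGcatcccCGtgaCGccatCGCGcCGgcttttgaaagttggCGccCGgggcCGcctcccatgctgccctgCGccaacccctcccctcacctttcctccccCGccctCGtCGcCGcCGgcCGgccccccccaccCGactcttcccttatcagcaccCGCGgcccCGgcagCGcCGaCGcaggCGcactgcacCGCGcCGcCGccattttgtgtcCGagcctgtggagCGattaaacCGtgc
Bcl11a: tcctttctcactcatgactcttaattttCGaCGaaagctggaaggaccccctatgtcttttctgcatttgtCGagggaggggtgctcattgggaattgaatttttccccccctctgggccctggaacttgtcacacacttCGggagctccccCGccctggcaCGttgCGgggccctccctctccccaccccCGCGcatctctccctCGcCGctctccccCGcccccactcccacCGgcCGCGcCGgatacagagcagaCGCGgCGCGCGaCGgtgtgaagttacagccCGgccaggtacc
Myt1l: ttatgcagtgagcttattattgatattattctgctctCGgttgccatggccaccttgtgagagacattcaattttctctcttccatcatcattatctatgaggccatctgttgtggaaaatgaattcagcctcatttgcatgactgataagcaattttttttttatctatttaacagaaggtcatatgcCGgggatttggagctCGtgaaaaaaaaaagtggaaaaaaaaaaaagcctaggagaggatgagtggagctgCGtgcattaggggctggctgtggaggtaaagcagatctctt
The GC content of these promoters is 75.3%, 63.0% and 40.0%, in the same order.

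Among the ATP-dependent remodellers and their partners, 8 were tested, and 7 of them had a log2 fold change above 0, up to 0.14. None passed a threshold. Chd8 encodes a CHD-family remodeller that is among the genes most often carrying loss-of-function mutations in autism. Its FPKM was 7.55, 7.72, 7.55 and 7.20 in the WT mice and 7.27, 7.08, 8.95 and 8.63 in the 16p11.2+/- mice. DF-1059 and DF-1062 were above all WT mice and DF-1018 and DF-1037 were within or below them, so the genotypes overlapped, and the log2 fold change was 0.07 (SE 0.09, n = 4 mice per genotype, edgeR adjusted p = 0.884). Chd3, a remodeller of the repressive NuRD complex, was at 61.8, 77.5, 65.2 and 71.4 FPKM in WT and at 66.9, 81.2, 74.9 and 85.7 FPKM in 16p11.2+/- mice. The highest values were those of DF-1062 and DF-1037, the mice with the lowest scores of medium spiny neuron markers. Chd3 had a log2 fold change of 0.14 (SE 0.10, edgeR adjusted p = 0.859). Smarcc2, a core subunit of the BAF complex, was at 50.3, 51.9, 49.0 and 51.4 FPKM in WT and at 48.9, 54.9, 52.3 and 60.3 FPKM in 16p11.2+/- mice, with DF-1062 and DF-1037, low in medium spiny neuron markers, again highest. With a log2 fold change of 0.07 (SE 0.07), its genotypes overlapped through DF-1018.

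Arid1b, the BAF subunit mutated in Coffin-Siris syndrome, was at 8.26, 8.26, 8.48 and 7.84 FPKM in WT and at 9.25, 8.04, 8.61 and 7.63 FPKM in 16p11.2+/- mice. The 16p11.2+/- values enclosed the WT values, and the log2 fold change was 0.01 (SE 0.09). Chd7, the CHARGE syndrome remodeller, was at 2.36, 2.34, 2.34 and 2.67 FPKM in WT and at 2.60, 2.37, 2.26 and 2.75 FPKM in 16p11.2+/- mice. Its 3 highest values belong to WT-1063, DF-1018 and DF-1062, the mice with the lowest cortical scores, and the 4 highest to the mice with high thalamic scores. The log2 fold change of 0.02 (SE 0.08) turned negative with the cortical score or the thalamic score as a covariate (-0.03 and -0.04). The other members of this group were near 0: Arid2 of the PBAF complex had a log2 fold change of 0.02, Chd2 of 0.01 and Pogz, a zinc finger protein that binds heterochromatin protein HP1, of -0.04. Of the exon bases of Chd2, 18.4% are shared on the same strand with 1810026B05Rik and Gm44686, so its counts may leave out reads in that part.

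Adnp, which binds CHD4 and HP1, cannot be read as an expression level in these data. It had between 0 and 7 counts per mouse and 29 counts in all over the 8 mice, and it was the only listed gene with a row that did not pass the count filter. By the annotation, Adnp lies on chromosome 2 from 168180986 to 168207112 on the minus strand, and 82.1% of its exon bases are shared on the same strand with the annotated gene Gm20716. Of 108 protein-coding genes with at least 80% of their exon bases shared in this way, 89 had fewer than 100 counts over the 8 mice (82.4%), against 22.2% of 17582 protein-coding genes with less than 5% shared.

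The 9 histone methyltransferases and their relatives were divided, with 5 log2 fold changes below 0 and 4 above, a median of -0.03 and a range from -0.09 to 0.12. Kmt2a, which methylates histone H3 at promoters, was at 11.98, 11.7, 10.8 and 10.2 FPKM in WT and at 12.02, 9.90, 12.4 and 15.2 FPKM in 16p11.2+/- mice. DF-1037 was the lowest of all mice and DF-1062 the highest, and the log2 fold change was 0.12 (SE 0.12, edgeR adjusted p = 0.864). Kmt2c, which acts mainly at enhancers, was at 4.69, 4.74, 4.58 and 4.79 FPKM in WT and at 4.89, 4.38, 4.85 and 5.43 FPKM in 16p11.2+/- mice. Again DF-1037 was the lowest of the 8 mice and DF-1062 the highest, with a log2 fold change of 0.03 (SE 0.07). Setd5, a SET domain protein found with corepressors, was at 7.79, 7.91, 7.80 and 7.59 FPKM in WT and at 7.79, 7.77, 7.92 and 9.01 FPKM in 16p11.2+/- mice. DF-1062 stood above the other 7 mice, which were between 7.59 and 7.92, and the log2 fold change was 0.04 (SE 0.06). Ash1l, Setd2 and Nsd1, which methylate histone H3 in transcribed genes, had log2 fold changes of 0.04, -0.03 and -0.03. Ehmt1, a writer of repressive methylation, was at -0.03, Kmt5b, which methylates histone H4, at -0.09, and Kmt2e, a family member with little enzyme activity of its own, at -0.09. The FPKM of Kmt2e was 14.8 in DF-1037 and 15.1 in DF-1062, the mice with low medium spiny neuron scores, and between 15.9 and 18.1 in the other 6 mice.

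Of the 7 genes for removal or reading of histone marks, 4 were below 0 and 3 above. Kdm6b, the demethylase that removes the Polycomb mark, was at 4.04, 4.46, 4.38 and 4.31 FPKM in WT and at 4.05, 4.68, 4.28 and 6.07 FPKM in 16p11.2+/- mice. The highest values were those of DF-1062 and DF-1037, the mice with low medium spiny neuron scores, against 4.04 to 4.46 FPKM in the other mice. The log2 fold change was 0.12 (SE 0.11, edgeR adjusted p = 0.859), and between 0.03 and 0.19 with 1 mouse left out. Without both DF-1037 and DF-1062 it was -0.04, in a fit that drops the highest 16p11.2+/- values. Kdm5b, which removes promoter methylation of histone H3, was at 5.51, 6.08, 5.53 and 4.65 FPKM in WT and at 5.09, 3.87, 5.25 and 5.04 FPKM in 16p11.2+/- mice. The 4 mice with high thalamic scores had the 4 lowest values, and the log2 fold change was -0.20 (SE 0.12, edgeR adjusted p = 0.859). The remaining genes of this group were between -0.07 and 0.02: Phf21a, a subunit of the LSD1-CoREST demethylase complex, at -0.07, Phf12, of the Sin3 corepressor, at -0.05, the related nucleosome-binding proteins Tcf20 and Rai1 at -0.01 and 0.01, and Mbd5, of the methyl-CpG binding domain family, at 0.02. Phf21a was between 6.79 and 7.197 FPKM in the 4 mice with high thalamic scores and between 7.198 and 7.48 in the other 4.

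Hdac4 is a class IIa deacetylase that holds MEF2 factors in check. It was at 3.37, 3.797, 2.76 and 3.14 FPKM in WT and at 2.96, 4.43, 3.29 and 3.83 FPKM in 16p11.2+/- mice. DF-1037 and DF-1062, low in medium spiny neuron markers, were again highest, and the log2 fold change of 0.13 (SE 0.14, edgeR adjusted p = 0.873) was -0.06 without them. Leaving out the highest values of a genotype lowers it in any case. On the opposite strand, Gm26720 overlaps 22.4% of the exon bases of Hdac4, and the strand setting of the counting is not given in the sources used here. Tbl1xr1, a subunit of the NCoR/SMRT corepressor, was at 13.003, 11.4, 12.2 and 9.98 FPKM in WT and at 11.1, 11.25, 11.3 and 8.71 FPKM in 16p11.2+/- mice. Its log2 fold change was -0.15 (SE 0.13, edgeR adjusted p = 0.859), and its 4 lowest values were those of the mice with high thalamic scores. The 3 mice with low cortical scores were the 3 lowest, between 8.71 and 11.1 FPKM. Ankrd11, the KBG syndrome gene whose product binds deacetylases, was among the most even, at 18.9, 20.4, 19.0 and 18.3 FPKM in WT and at 19.6, 19.3, 18.3 and 18.6 FPKM in 16p11.2+/- mice, with a log2 fold change of -0.04 (SE 0.08).

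MED13 and MED13L are alternative subunits that join the kinase module to Mediator. Med13l was at 9.93, 9.88, 9.02 and 8.43 FPKM in WT and at 11.203, 8.68, 10.4 and 7.76 FPKM in 16p11.2+/- mice, and the 16p11.2+/- values enclosed the WT values (log2 fold change 0.01, SE 0.14). Med13 was at 12.1, 11.9, 11.9 and 11.3 FPKM in WT and at 11.8, 9.15, 11.97 and 8.55 FPKM in 16p11.2+/- mice. The lowest values were those of DF-1037 and DF-1062, the mice with low medium spiny neuron scores. The log2 fold change was -0.20 (SE 0.13, edgeR adjusted p = 0.859) with all mice and -0.04 with the medium spiny neuron score as a covariate. Without these mice it was 0.02 (SE 0.07), but leaving out the lowest values of a genotype raises it in any case. The part of the tissue make-up was not tested. Med13 was also lower in the 4 mice with high thalamic scores (8.55 to 11.75 FPKM) than in the other 4 (11.88 to 12.08 FPKM). Dyrk1a, a kinase gene of the Down syndrome region, was at 11.3, 12.02, 11.1 and 10.98 FPKM in WT and at 10.4, 10.98, 11.002 and 12.9 FPKM in 16p11.2+/- mice, with a log2 fold change of -0.03 (SE 0.07). Auts2, a partner of a Polycomb complex, was at -0.05 on the log2 scale. Trip12, a ubiquitin ligase, was at -0.01, and Wac, an adaptor for histone ubiquitination, was at 0.03 with an interval from -0.11 to 0.16, the narrowest among the regulators.

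The log2 fold changes of the 4 DNA-binding transcription factors were all below 0 (median -0.25), and none passed the threshold. CTCF binds insulators and halts cohesin to form chromatin loops. Ctcf (chromosome 8, 105636568 to 105682922) was at 19.1, 19.6, 19.0 and 16.5 FPKM in WT and at 17.0, 16.5, 16.2 and 17.4 FPKM in 16p11.2+/- mice. All 16p11.2+/- mice were below 3 of the WT mice, and WT-1063 lay among them. The log2 fold change was -0.16 (SE 0.08, edgeR unadjusted p = 0.0598, adjusted p = 0.859), and the exact two-sided permutation test of FPKM gave p = 0.114, where 4 mice against 4 allow a smallest p of 0.0286.

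BCL11A is a zinc finger repressor of fetal globin genes that is also made in forebrain neurons. Bcl11a (chromosome 11, 24078056 to 24174123) was at 5.89, 5.93, 5.59 and 2.92 FPKM in WT and at 4.38, 3.63, 5.39 and 3.69 FPKM in 16p11.2+/- mice. The 4 mice with high thalamic scores had between 2.92 and 4.38 FPKM and the other 4 between 5.39 and 5.93, and WT-1063 was the lowest of all. The log2 fold change of -0.27 (SE 0.24, edgeR adjusted p = 0.859) became 0.10 (SE 0.12) with the thalamic score as a covariate. Tcf4, the Pitt-Hopkins syndrome gene, whose product pairs with other basic helix-loop-helix factors, was at 14.8, 16.0, 12.7 and 9.45 FPKM in WT and at 9.17, 15.4, 11.8 and 8.64 FPKM in 16p11.2+/- mice. The 3 mice with the lowest cortical scores, WT-1063, DF-1018 and DF-1062, had between 8.64 and 9.45 FPKM and the other 5 between 11.8 and 16.0. The log2 fold change of Tcf4 was -0.25 (SE 0.22, edgeR adjusted p = 0.859) and -0.07 (SE 0.10) with the cortical score as a covariate.

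MYT1L represses non-neuronal genes in neurons. Myt1l (chromosome 12, 29528384 to 29923213) was at 35.4, 30.5, 31.3 and 21.8 FPKM in WT and at 30.6, 20.7, 31.4 and 19.2 FPKM in 16p11.2+/- mice. DF-1037 and DF-1062, the mice with low medium spiny neuron scores, had the lowest values. WT-1063 followed at 21.8 FPKM, although its medium spiny neuron score of 7.74 was near the 7.89 of WT-1041, where Myt1l was at 30.5 FPKM. The log2 fold change was -0.24 (SE 0.22, edgeR adjusted p = 0.861) and 0.03 (SE 0.13) with the medium spiny neuron score as a covariate. For Bcl11a, Tcf4, Myt1l and Med13, the covariate printed is the score whose mice the values of the gene were seen to follow. A smaller fold change with it was therefore likely beforehand. The mice with high thalamic scores include all those with low cortical or low medium spiny neuron scores, and all but WT-1063 are 16p11.2+/-. The scores thus cannot be fully told apart from each other or from genotype. The part of the tissue make-up in the values of these genes was not tested.

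**Figure D3:**
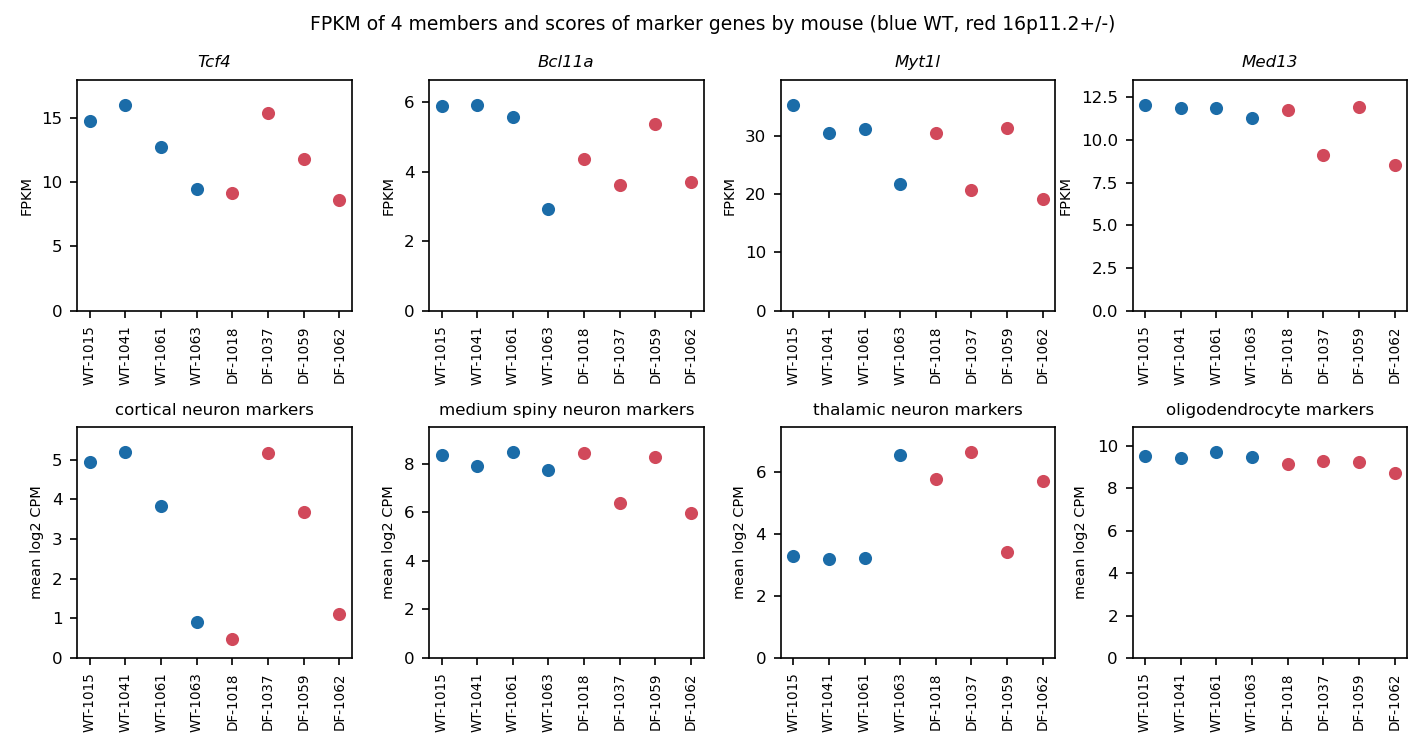
FPKM of Tcf4, Bcl11a, Myt1l and Med13 in each of the 8 mice (upper panels) and the mean log2 CPM of cortical, medium spiny, thalamic and oligodendrocyte markers in the same mice (lower panels), WT in blue and 16p11.2+/- in red. Tcf4 is at 8.64 to 9.45 FPKM in the 3 mice with a cortical score of at most 1.11, and Bcl11a is at 2.92 to 4.38 FPKM in the 4 mice with a thalamic score of at least 5.73.

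Leaving out WT-1063, which stood apart from the other WT mice in thalamic, cortical and choroid plexus scores, changed some of these counts. Without it, 3 of the regulators had an unadjusted p under 0.05 in edgeR, beside 8.21% of the genes then tested. These were Ctcf with a log2 fold change of -0.22 (SE 0.07, edgeR adjusted p = 0.528), Bcl11a with -0.46 (SE 0.15, edgeR adjusted p = 0.537) and Kdm5b with -0.27 (SE 0.12, edgeR adjusted p = 0.605). The FPKM values of the genotypes then no longer overlapped for 5 regulators (Ctcf, Bcl11a, Kdm5b, Tbl1xr1 and Phf21a, all lower in 16p11.2+/- mice), beside 10.2% of the genes then tested. The WT mice left in that fit all had low thalamic scores, whereas 3 of the 4 16p11.2+/- mice had high ones. Without DF-1018 the genotypes did not overlap for Smarcc2, beside 6.78% of genes, and without DF-1037 they did not overlap for Kmt2a and Kmt2c, beside 6.80%. Single mice also differed in the median of the regulators. This median deviation from the mean of the 8 mice was lowest in DF-1037, at -0.11 in log2 CPM, and highest in DF-1018, at 0.07, and the genes with the longest exon lengths had medians of -0.07 and 0.05 in the same mice. Regulators went both ways within a mouse: in DF-1037 the deviation of Hdac4 was 0.38 and that of Tcf4 0.37, and in DF-1018 that of Tcf4 was -0.34. The part of exon length in these shifts was not tested.

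Because FPKM is per length, related genes on the list can be compared within a mouse. A ratio also depends on the exon lengths used for both genes. These are the same in every mouse, so a test across mice cannot speak to them. For each of 8 pairs the ratio of FPKM was computed in the 8 mice and tested with an exact two-sided paired permutation test, adjusted over the 8 pairs, whose smallest unadjusted p is 0.0078. All 8 pairs differed in FPKM. Chd8 was 3.14 times as abundant as its relative Chd7 (range 2.70 to 3.96, adjusted exact p = 0.00893), and Chd3 was 11.9 times as abundant as Chd2 (9.49 to 15.7). The counts of Chd2 may leave out reads in exon bases shared with other genes, which would raise this ratio in every mouse. Arid1b exceeded Arid2 1.66 times, which sets the BAF subunit above its PBAF counterpart in every mouse. Kmt2a exceeded Kmt2c 2.44 times and Ash1l exceeded Nsd1 1.24 times, each in 8 of 8 mice and with the same adjusted p. Kmt2e had the highest mean FPKM of the 9 methyltransferase genes. The ratio of Setd5 to Kmt2e was 0.475, in the same direction in 8 of 8 mice. That of Kmt2a to Kmt2e was 0.698, in the same direction in 7 of 8 mice (adjusted exact p = 0.0156), with 1.01 in DF-1062. By raw counts Kmt2a was above Kmt2e in all mice but WT-1061 (2945 against 3062). The direction of this ratio thus rests on the exon lengths, 16670 bases for Kmt2a and 10444 for Kmt2e.

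The ratio of Med13l to Med13 was 0.851 (range 0.745 to 0.953), below 1 in 8 of 8 mice. Its direction rests on the exon lengths, 15427 bases for Med13l and 10840 for Med13. The raw counts of Med13l were the higher in every mouse, for example 2318 against 1980 in WT-1015. Which of these genes has more transcripts is therefore not settled. The log2 ratio had a mean of -0.34 in WT and -0.12 in 16p11.2+/- mice, and these values did not overlap. The exact permutation p of this difference between genotypes was 0.0286, the smallest that 4 mice against 4 allow, and 0.229 after adjustment over the 8 pairs. For the other 7 pairs the exact permutation p between genotypes was at least 0.057.

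**Figure D4:**
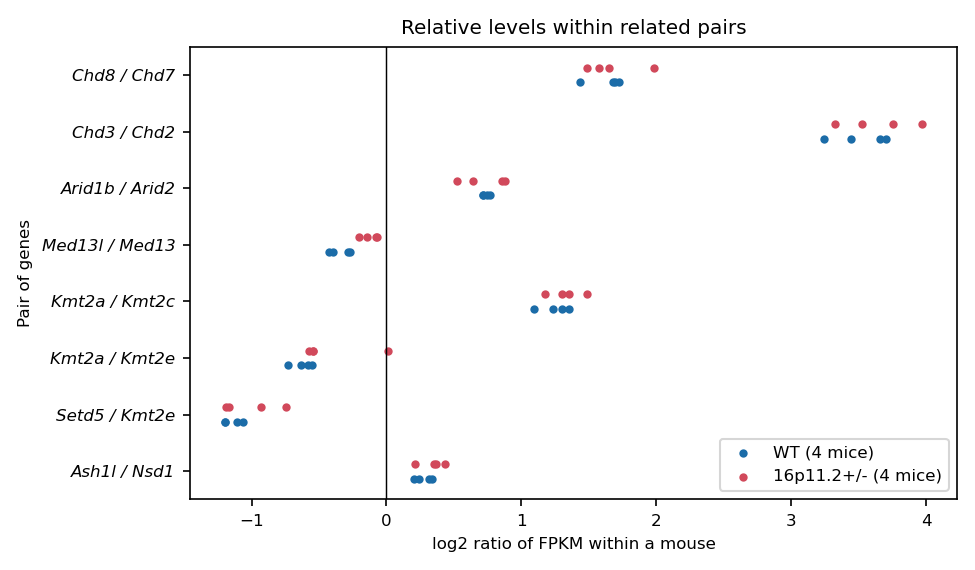
Log2 ratio of FPKM within each mouse (x axis) for 8 pairs of related regulators (y axis), with WT in blue and 16p11.2+/- in red and a line at 0 for equal FPKM. Chd3 exceeds Chd2 the most, by a mean of 3.58 on the log2 scale, and the Med13l to Med13 ratios are below 0 in all mice and nearer to 0 in 16p11.2+/- mice.

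The proteins on the list work in complexes, and 108 further genes for subunits and relatives, in 10 lists, were read from the same fit. All 108 were tested. None passed the adjusted threshold in edgeR, DESeq2 or limma-voom, and 4 had an unadjusted p under 0.05 in edgeR, beside 4.32% of all genes tested. Of the 4, 3 were lower in 16p11.2+/- mice, beside 2.37% of all genes tested. Of the 108, 67 had a log2 fold change below 0 and 41 above, with a median of -0.02. These 4 are named because of their values: Ezh2, the Polycomb methyltransferase, at -0.47 (SE 0.17), the BAF subunit Ss18 at -0.20 (SE 0.07), the demethylase Kdm5a at -0.16 (SE 0.07) and the NuRD subunit Mta3 at 0.40 (SE 0.15), each with an edgeR adjusted p of 0.859. Ezh2 was at 2.71, 2.75, 2.13 and 2.03 FPKM in WT and at 2.09, 1.57, 1.87 and 1.495 FPKM in 16p11.2+/- mice, with DF-1037 and DF-1062 lowest. Mta3 was at 9.07, 11.95, 10.6 and 12.2 FPKM in WT and at 11.02, 15.6, 13.3 and 19.2 FPKM in 16p11.2+/- mice, with the same pair of mice highest. FPKM of the genotypes did not overlap for 6 of the 108, beside 2.83% of all genes tested.

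The lists differed little in their medians. The 7 cohesin genes that work with CTCF were all negative, with a median of -0.09 and values from -0.16 (Stag2) to -0.02 (Smc1a). Of the 14 partners of the KMT2 (COMPASS) complexes, 9 were positive, and Kmt2d, mutated in Kabuki syndrome, was at 0.09 (SE 0.10). Among the 14 other methyltransferase and demethylase genes 12 were negative, with a median of -0.05. Of the 23 BAF and PBAF subunits, 14 were negative and 9 positive, with a median of -0.04. Other CHD remodellers and ChAHP partners had a median of -0.01 (12 genes), the Mediator kinase module of -0.0016 (5 genes), the NCoR/SMRT and class IIa deacetylase list of 0.08 (11 genes), methyl-CpG binding proteins of -0.06 (6 genes), AUTS2-PRC1 partners of -0.0021 (8 genes) and the paralogues of the transcription factors of -0.09 (8 genes). Bcl11b, the paralogue of Bcl11a that medium spiny neurons need, was at 53.5, 40.7, 57.7 and 31.1 FPKM in WT and at 51.3, 16.8, 45.6 and 13.2 FPKM in 16p11.2+/- mice. Its low values in DF-1037 and DF-1062 came with the low medium spiny neuron scores of these mice, and the log2 fold change was -0.53 (SE 0.45, edgeR adjusted p = 0.859).

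**Figure D5:**
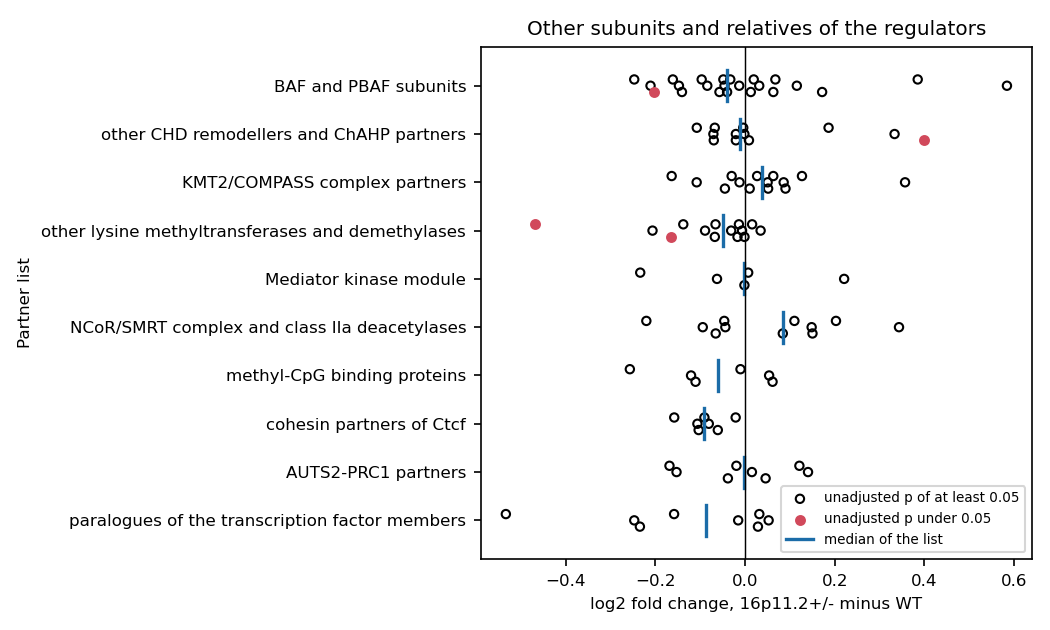
Log2 fold change (x axis) of 108 genes for subunits and relatives of the regulators, in 10 lists (y axis), with open points for an unadjusted edgeR p of at least 0.05, red points for the 4 below it and a blue line at each list's median. All 7 cohesin genes lie below 0, and the lowest red point is Ezh2 at -0.47.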

How the data were processed

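RNA of striatum from 8 mice was sequenced. Reads were mapped with Hisat2 and counted with Htseq-count, as the study's methods state, and the authors deposited raw counts per gene and FPKM (counts scaled to gene length and library total) per mouse. The submitters' processing notes name Bowtie 0.12.2, mm8 and mm9 instead, so the build of the mapping is open. Annotation is GENCODE M21, whose exon lengths match those that the FPKM values imply in 97.4% of 35149 genes compared (tolerance 0.1%). The deposited comparison of the authors (group means, fold changes and p-values) was not used.

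The test was edgeR's quasi-likelihood test (version 4.0.16, R 4.3.3) with TMM factors, after filterByExpr (a CPM worth 10 counts in at least 4 mice, and 15 counts in all), adjusted by Benjamini-Hochberg over all 18294 genes with a threshold of 0.05. Intervals are at 95%. FPKM and ratios were compared with exact permutation tests over 70 assignments or paired sign changes. Alternatives were DESeq2 1.42.0, limma 3.58.1 (voom, and trend after adding 1 or 0.1 to FPKM before log2), library totals or RLE factors, other filters, marker scores (mean log2 CPM, prior count 2) as covariates and each mouse left out. The covariates for medium spiny neurons and the fit without DF-1037 and DF-1062 were chosen after seeing the data. The scripts were tested on simulated data in which 200 genes were changed. No libraries of 1 genotype were alike within sampling noise (chi-square over its degrees of freedom from 8.88 to 62.9), and each was kept as 1 sample.

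Genes were described by mouse if they had an unadjusted p under 0.05 (none), the 3 highest or lowest log2 fold changes, the 3 highest or lowest mean FPKM, or were fixed as lead genes of a role. Ctcf, Kdm5b, Tbl1xr1 and Med13 were added after their values were seen, as were the 4 partner genes with an unadjusted p under 0.05. Other partner genes were named if they passed the adjusted threshold or had an unadjusted p under 0.01 (none), with Bcl11b and Kmt2d fixed (another fixed gene is not reported here), and Stag2 and Smc1a as ends of a range. The members, lists and tests were chosen with earlier results of these data known.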

Additional observations from a re-analysis of the deposited data

Results flagged for a closer look

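In groups of 4 mice, a mouse was picked out where its gap to the nearest other mouse was above Dixon's 95% limit as a share of the range of its group. Among 74 groups (37 genes in 2 genotypes), 6 passed it, and chance flags about 1 in 20. The share flagged among all genes tested was not computed, so the 6 are not read as a result about the regulators. Chd7 was at 2.67 FPKM in WT-1063, against 2.34 to 2.36 in the other WT mice (ratio of gap to range 0.932). Bcl11a was at 2.92 FPKM in the same mouse, against 5.59 to 5.93 (ratio 0.886). Setd5 was at 9.01 FPKM in DF-1062, against 7.77 to 7.92 in the other 16p11.2+/- mice (ratio 0.875). Tbl1xr1 was at 8.71 FPKM in DF-1062, against 11.1 to 11.3 (ratio 0.949). In DF-1037, Kdm5b was at 3.87 FPKM, against 5.04 to 5.25 (ratio 0.849), and Nsd1 was at 8.63 FPKM, against 9.69 to 9.90 (ratio 0.834). All 6 values are from WT-1063, DF-1037 or DF-1062. WT-1063 differs from the other WT mice in thalamic, cortical and choroid plexus scores, and DF-1037 and DF-1062 differ from the other 16p11.2+/- mice in the medium spiny neuron score. DF-1018, which has the lowest cortical score (0.47) and a high thalamic score (5.79), has none of these values. The part of the tissue make-up in these values was not tested.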

How the results depend on the processing

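No regulator and no partner gene passed the adjusted threshold under any alternative run. The count of all genes past it was 20 with edgeR and 29 with DESeq2, and it was 13 with the thalamic score, 1 with the oligodendrocyte score and 12 with the medium spiny neuron and cortical scores as covariates, 11 without DF-1037 and DF-1062, and 8 to 18 with 1 mouse left out. The count of regulators with an unadjusted edgeR p under 0.05 was 0 to 3 with 1 mouse left out (3 without WT-1063, beside 8.21% of the genes then tested). It was 2 with the medium spiny neuron and cortical scores, beside 659 of the 18294 genes tested. These were Ash1l (log2 fold change 0.17) and Med13l (0.21), both with an edgeR adjusted p of 0.9999, and they are not read as a result about the regulators. The count of regulators whose FPKM did not overlap was 0 to 5. The count of pairs that differed was 8 throughout. Of 352 refits of the 16 genes described by rule, 34 changed the sign of a log2 fold change that was not called. With the oligodendrocyte score these were Chd7 (-0.081), Smarcc2 (-0.011), Setd5 (-0.031), Kmt2a (-0.14), Kmt2c (-0.069), Kdm6b (-0.12), Ankrd11 (0.029), Tcf4 (0.12), Bcl11a (0.0032) and Myt1l (0.16). With the thalamic score they were Chd7 (-0.044) and Bcl11a (0.10), and with the cortical score Chd7 (-0.029). With the medium spiny neuron score they were Kdm6b (-0.0054), Hdac4 (-0.0090) and Myt1l (0.028), and with this score and the cortical score together Chd7 (-0.050), Kdm6b (-0.020), Ankrd11 (0.012), Bcl11a (0.12) and Myt1l (0.11). Without DF-1037 and DF-1062 they were Kdm6b (-0.038), Hdac4 (-0.056) and Myt1l (0.066), and with limma-voom Med13l (-0.0019). With 1 mouse left out, Chd7 ranged from -0.010 to 0.068, Arid1b from -0.047 to 0.088, Ankrd11 from -0.059 to 0.0087, Med13l from -0.083 to 0.13 and Dyrk1a from -0.059 to 0.0025. The cause was not tested. No paired analysis was possible because the genotypes share no replicate numbers. The genotype and the tissue make-up could be separated only in part, through these scores, which rest on 8 mice. The oligodendrocyte score cannot separate them, because it did not overlap between the genotypes (9.43 to 9.72 in WT, 8.74 to 9.28 in 16p11.2+/- mice). The sign changes and the count of 1 with that covariate therefore do not tell genotype and oligodendrocyte content apart.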
